A study of Arabis alpina with 12 samples.

Results

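Of 24657 genes listed for young leaves of Arabis alpina, a perennial relative of Arabidopsis, 511 (2.07%) lay on H3K4me3, H3K27me1 and 5mC at once. The genes were chosen by the called domains alone: a gene was taken when each of these 3 marks covered at least 200 bp of its span, the stretch between its listed start and end. The 511 genes were split by H3K27me3: 201 had at least 200 bp of this mark as well and 310 did not. Among all listed genes the same minimum was met by 76.2% for H3K4me3, 13.1% for H3K27me3, 4.60% for H3K27me1 and 5.41% for 5mC. Since the domains chose the genes, the amounts of each mark are a description of the choice. The choice did not use mRNA or the place on chromosomes and scaffolds. The marks around the genes come from the same lists as the choice and are not independent of it. Span enters the choice through the overlap minimum.

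The leaves came from the accession Pajares, grown in soil at 22.5 °C in long days (16 h light, 8 h dark), and no other genotype or treatment is labelled in the series. Antibodies to H3K4me3, H3K27me3 and H3K27me1 gave 2 ChIP-seq libraries each, with 1 ChIP input library. Methylated DNA (5mC) was precipitated (MeDIP) in 2 libraries with 2 inputs, and 1 mRNA library brings the total to 12. Each mark is held as 1 list of enriched domains and mRNA as 1 coverage value per gene, so the values carry no replicate error, no test was run, and the depth is unknown.

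H3K4me3 is placed around the starts of transcribed genes and is a general mark of active promoters in plants and animals. H3K27me1 in Arabidopsis is deposited by the methyltransferases ATXR5 and ATXR6 and, like dense cytosine methylation, is typical of silent heterochromatin and transposons. H3K27me3 is the mark of Polycomb repression, which holds developmental genes silent, and in plants it usually lies in gene-rich sequence. Cytosine methylation is also found in the bodies of transcribed plant genes, where it is mostly restricted to CG sites, which MeDIP cannot tell from other sites. A leaf holds many cell types, so marks on the same bases of 1 cell and marks that different cells carry cannot be told apart.

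In most of these genes H3K27me1 and 5mC covered more of the span than H3K4me3. In the class with H3K27me3, the median share of the span was 58.4% for H3K27me1, 53.4% for 5mC, 27.5% for H3K27me3 and 24.2% for H3K4me3. In the class without H3K27me3 it was 40.9% for H3K27me1, 48.0% for 5mC and 20.4% for H3K4me3. H3K4me3 was the shortest of the 3 overlaps in 133 of 201 genes with H3K27me3 and in 189 of 310 without. The 2 heterochromatin marks lay largely on the same bases, as they did in listed genes at large. Of the H3K27me1 bp, 76.2% in the class with H3K27me3 and 76.0% in the class without were also under 5mC. The share was 69.5% over all listed genes and 79.8% in genes with H3K27me1 and 5mC but neither trimethyl mark.

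All 3 marks sat on the same bases in many of the genes but not in all. At least 200 bp lay under H3K4me3, H3K27me1 and 5mC together in 140 of 201 genes with H3K27me3 (69.7%) and in 148 of 310 without (47.7%). The same held for 1.17% of all listed genes, and all 288 of those are members by the rule. No base carried all 3 marks in 48 genes with H3K27me3 and in 143 without. The median stretch under the 3 marks together was 450 bp in the class with H3K27me3 and 150 bp in the class without. In 23 genes with H3K27me3 and 26 without, the shared stretch took up 50% of the span or more.

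The place of H3K4me3 relative to the 2 heterochromatin marks separated 3 arrangements. H3K4me3 is called apart when no base of it inside the span was under H3K27me1 or 5mC, inside when every base was under at least 1 of them, and mixed otherwise. In the class with H3K27me3, 34 genes were apart, 47 mixed and 120 inside. In the class without H3K27me3, 111 were apart, 70 mixed and 129 inside. The inside arrangement thus made up 59.7% of the class with H3K27me3 (exact 95% interval 52.6 to 66.5%) and 41.6% of the class without (36.1 to 47.3%), intervals that cover counting error only. A single H3K4me3 domain lay on 29 of 34 apart genes with H3K27me3 and 98 of 111 without, against 61 of 120 and 84 of 129 inside genes of the same classes. Apart genes also had less of the heterochromatin marks, to which the definition contributes: the median share under H3K27me1 was 16.1% with H3K27me3 and 18.9% without, against 75.5% and 80.0% in inside genes. No domain of any of the 4 marks lay on a median of 43.3% of the span of apart genes with H3K27me3 and 47.0% of those without, against 11% and 7.14% in inside genes. In the apart genes the nearest H3K27me1 or 5mC inside the span was a median of 1200 bp from H3K4me3 with H3K27me3 and 600 bp without. Domains beyond the gene ends were not counted in this distance.

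Summed over bases, H3K4me3 lay more often under H3K27me1 than under 5mC. In the class with H3K27me3, 81.3% of the H3K4me3 bp were under H3K27me1, 59.1% under 5mC and 54.8% under H3K27me3, and 16.8% were free of H3K27me1 and 5mC. In the class without H3K27me3, 60.9% were under H3K27me1 and 45.3% under 5mC, and 35.7% were free of both. Over all listed genes 3.23% of the H3K4me3 bp were under H3K27me1, a value that these genes, chosen for having both, were bound to exceed.

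**Figure D1:**
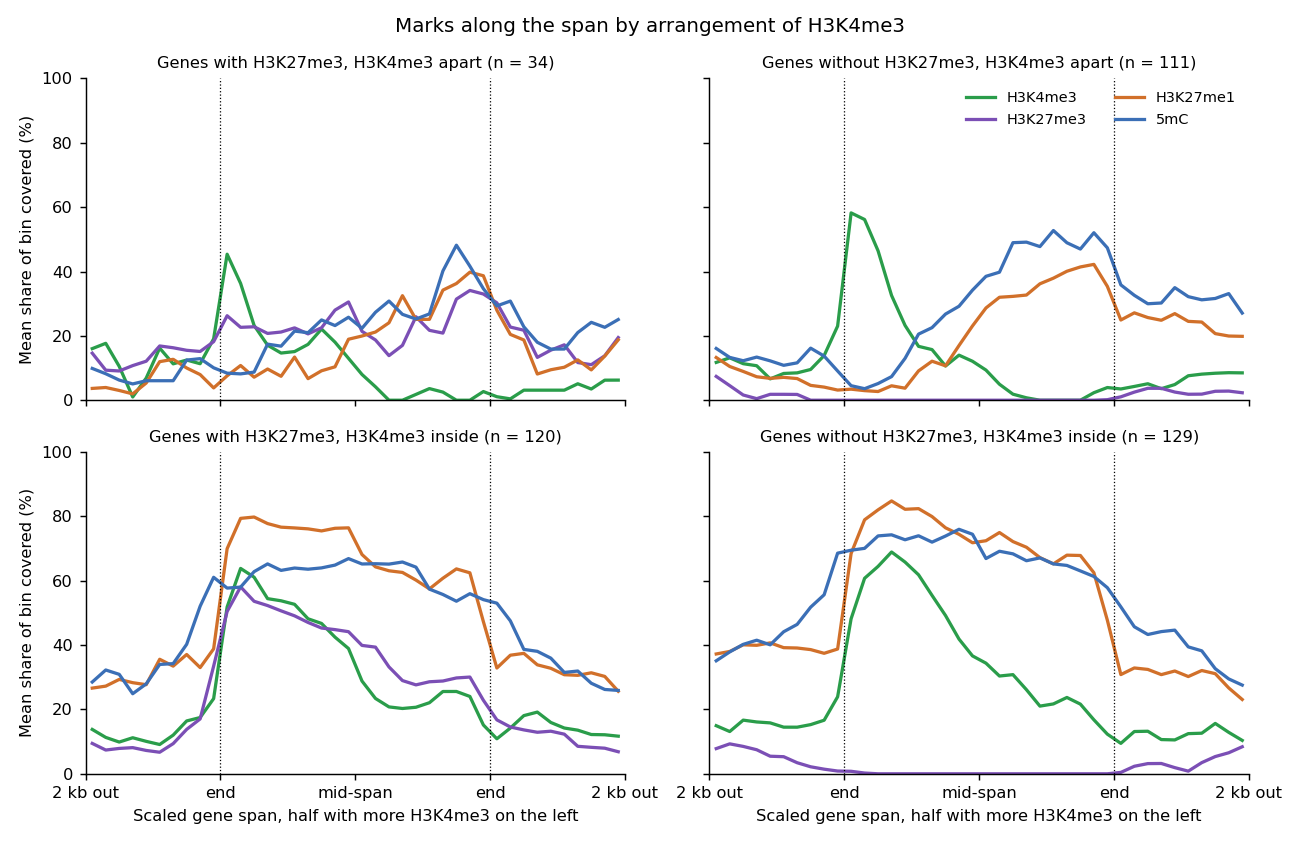
Mean share of each bin covered by a mark (y axis, %) along the scaled span and 2 kb on either side (x axis), for the apart (upper row) and inside genes (lower row) with H3K27me3 (left) and without (right); lines stand for marks, and each gene is turned so that the side with more H3K4me3 is on the left. In apart genes without H3K27me3, 5mC averages 5.15% over the first 20% of the span and 48.8% over the last 20%, whereas in inside genes without H3K27me3 the mean for H3K27me1 is already 78.6% over the first 20%.

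The values along the span describe the arrangements and are set in part by how these were defined. The table gives no strand, so each gene was turned to have the side with more H3K4me3 first, which by itself makes H3K4me3 higher in the first part. Since apart and inside are defined by the heterochromatin marks on the H3K4me3 bases, low values of those marks in the first part of apart genes and high ones in inside genes follow largely from that sorting. In apart genes with H3K27me3, 5mC covered 10.7% of the first 20% of the span and 41.2% of the last 20%. In apart genes without H3K27me3 the values were 5.15% and 48.8%, while H3K4me3 covered 48.3% of the first stretch and 1.57% of the last. In inside genes with H3K27me3, 5mC covered 60.9% of the first stretch and 54.9% of the last, and H3K27me1 covered 76.7% and 58.5%. In inside genes without H3K27me3, H3K27me1 covered 78.6% of the first stretch, where H3K4me3 was at 60.6%.

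H3K4me3 lay at a gene end in a smaller share of these genes than of genes that carried H3K4me3 alone. An end was counted when at least 150 of its outer 300 bp were covered, in genes of at least 2 kb. H3K4me3 was at exactly 1 end in 44.5% of 182 genes with H3K27me3 and in 56.5% of 260 without, against 90.5% of 9394 genes with only H3K4me3. It was at neither end in 40.7% of those with H3K27me3 and 32.7% of those without, against 7.91% of the genes with only H3K4me3. Genes with H3K4me3 and 5mC but neither H3K27 mark lay between, with 73.1% at 1 end and 23.9% at neither. The sets were not matched in span. Among the apart genes H3K4me3 was at 1 end in 17 of 33 with H3K27me3 and in 66 of 104 without. The main 5mC domain, that with the largest overlap, was within the span in 122 of 201 genes with H3K27me3 and in 186 of 310 without. It reached beyond both ends in 8 and 13 genes of these classes.

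The genes were long. The median span was 5128 bp with H3K27me3 (quartiles 3498 and 8241 bp) and 4634.5 bp without (2642 and 6473 bp), against 2091 bp over all listed genes. A span of 4 kb or more was found in 135 of 201 genes with H3K27me3 (67.2%) and in 182 of 310 without (58.7%), against 14.4% of all listed genes. A long span has more room for 200 bp of each mark, and how much of the difference comes with the rule was not tested. The apart genes were the longest, with a median of 7193.5 bp with H3K27me3 and 5491 bp without, against 4634.5 bp and 3185 bp in inside genes of the same classes.

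The authors' score per domain, a whole number without a label, was divided by the domain's length in kb and is set only against other scores of the same list. For the H3K4me3 domain with the largest overlap, the median was 491.7 per kb with H3K27me3 (quartiles 422 and 640) and 573.3 per kb without (442 and 935). All domains of the list had a median of 571.7, and the genes with only H3K4me3 had 958.9. At or above the list's median were 65 of 201 genes with H3K27me3 and 155 of 310 without. The arrangements differed more than the classes did: the median was 858.3 in apart genes with H3K27me3 and 896.7 in apart genes without, against 468.4 and 470.0 in inside genes of the same classes. Apart genes thus had denser H3K4me3 domains than the middle of the list, somewhat below the genes with only H3K4me3, and inside genes had thinner ones. The domains were not shorter: their median length was 750 bp in the apart and in the inside genes of both classes, as in genes with only H3K4me3. H3K27me1 domains went the other way, with a median of 1950 bp in inside genes of both classes, against 975 bp in apart genes with H3K27me3 and 750 bp in apart genes without.

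**Figure D2:**
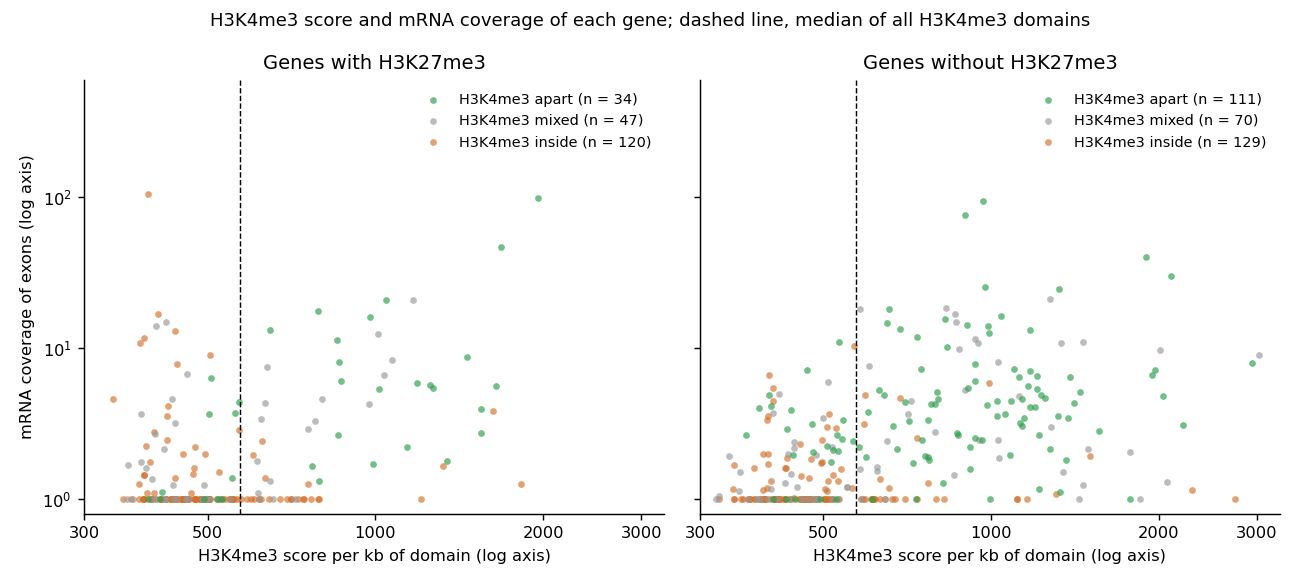
H3K4me3 score per kb of the main domain (x axis, log scale) against mRNA coverage (y axis, log scale) for genes with H3K27me3 (left) and without (right); each point is a gene, coloured by arrangement, and the dashed line is the median of all H3K4me3 domains. Apart genes lie at higher scores (medians 858.3 with H3K27me3 and 896.7 without) than inside genes (468.4 and 470.0), and inside genes crowd at a coverage of 1.

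Within the inside genes, those with a denser H3K4me3 domain also had a denser H3K27me1 domain. Spearman's rho between the 2 scores per kb was 0.55 in 120 genes with H3K27me3 and 0.56 in 129 without, against 0.16 and -0.16 in the apart genes of the same classes. In inside genes 97.4% of the H3K4me3 bp with H3K27me3 and 96.9% without lay under H3K27me1, which covered more of the span than H3K4me3. The histone libraries come with 1 input library, so the 2 scores of a gene can share input and part of their sequence. At the dense extreme, 5 genes, 2 with H3K27me3 and 3 without, were at 2 or more times the list median in all 3 lists. All 5 had the inside arrangement, and 4 of the 5 lay on unplaced scaffolds. So did 39 of 120 inside genes with H3K27me3 and 48 of 129 without, against 9.82% of all listed genes.

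mRNA was low in most of these genes. The authors' coverage of exons by mRNA reads is never below 1, and that lowest value was listed for 109 of 201 genes with H3K27me3 (54.2%, exact 95% interval 47.1 to 61.3%) and for 108 of 310 without (34.8%, 29.5 to 40.4%), against 8.86% of all listed genes. These intervals cover counting error only, and genes that share 1 mRNA library are not replicates. The median coverage was 1 with H3K27me3 and 1.75 without, against 5.77 over all listed genes. The class difference turned among genes above the lowest coverage, with medians of 3.25 with H3K27me3 and 3.04 without, and both medians were 1 when each mark had to cover 50% of the span. At or above that overall median were 27 genes with H3K27me3 (13.4%) and 48 without (15.5%), where all listed genes give 50% by definition. Fewer cells making an mRNA and less mRNA per cell cannot be told apart in a leaf sample.

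Genes with 2 of the 3 marks are given for comparison. Median coverage was 5.90, close to that of all listed genes, in 292 genes that carried H3K4me3 and 5mC but neither H3K27 mark. It was 1.00 in 245 genes that carried H3K27me1 and 5mC but neither trimethyl mark, and 8.05 in genes with only H3K4me3. The class without H3K27me3 lay between the first and the second of these sets. The first set is not matched to the members: 5mC covered a median of 17.3% of its spans (450 bp), against 48.0% (1865.5 bp) in members without H3K27me3, and its median gene had 100% of its H3K4me3 bp free of the other marks.

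Coverage differed more between the arrangements than between the classes. In apart genes the median was 4.20 with H3K27me3 and 3.80 without. In mixed genes it was 1.36 with H3K27me3 and 1.90 without, and in inside genes it was 1 in both classes. The lowest value was listed for 5 of 34 apart genes with H3K27me3 and 9 of 111 without, against 85 of 120 and 82 of 129 inside genes of the same classes. On the log2(coverage + 1) scale the apart median exceeded the inside median by 1.38 with H3K27me3 and by 1.26 without. Between the classes the difference of medians, with minus without H3K27me3, was -0.46 over all genes, but 0.12 in apart genes, -0.30 in mixed genes and 0 in inside genes. Arrangement and amount of marks went together. The median share of the span under H3K27me1 was 16.1% with H3K27me3 and 18.9% without in apart genes, against 75.5% and 80.0% in inside genes. Whether coverage differs between arrangements at an equal share was not tested.

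**Figure D3:**
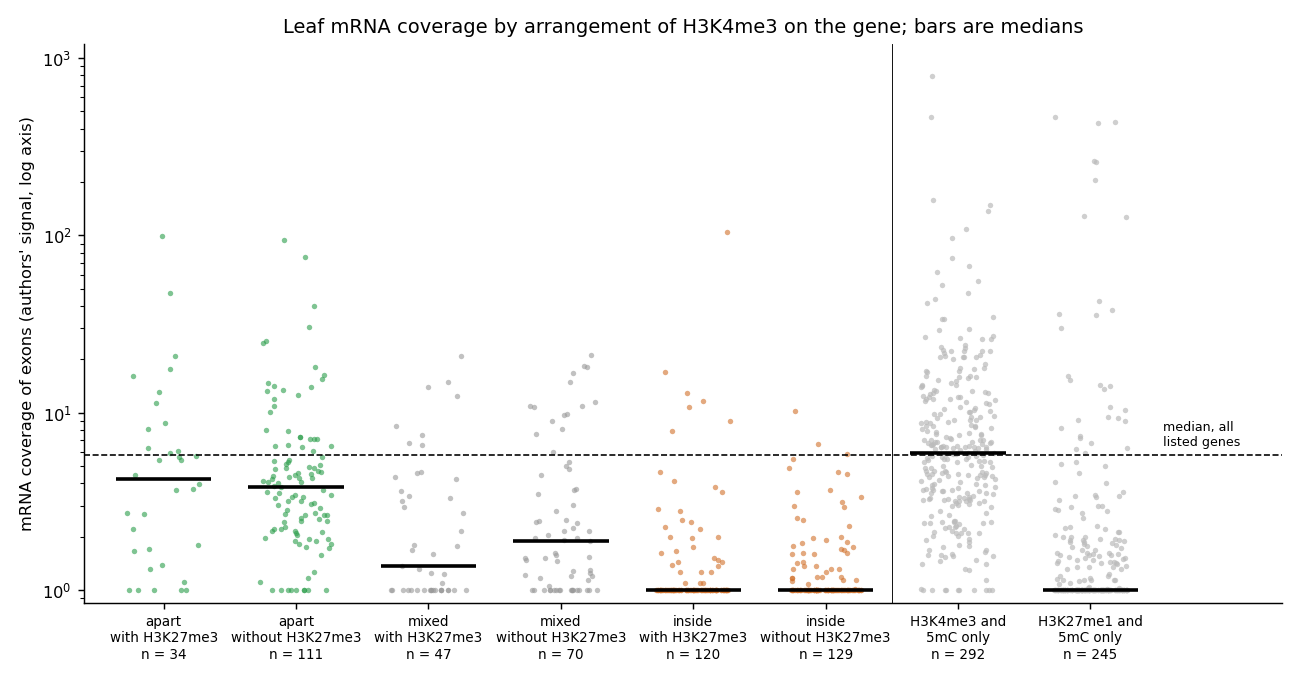
mRNA coverage (y axis, log scale; 1 is the lowest listed value) by arrangement and class of genes; points are genes, bars are medians, and the last columns are the genes with H3K4me3 and 5mC only and with H3K27me1 and 5mC only. Apart genes have medians of 4.20 with H3K27me3 and 3.80 without, under the dashed median of all listed genes (5.77), and inside genes have medians of 1 in both classes.

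Apart genes had a higher median than inside genes in every band of span, on either side of the members' median H3K4me3 score and on the chromosomes alone, in each class. Under 2 kb with H3K27me3 this rests on 1 apart gene. The mixed genes did not always lie between them: under 2 kb without H3K27me3, 8 mixed genes had 4.34 and 7 apart genes had 3.03. Among members of 4 to 8 kb, 67 apart genes had a median coverage of 3.36, mixed genes 1.52 and 94 inside genes 1, against 7.16 in genes with only H3K4me3. Among members below their median H3K4me3 score of 520 per kb, the gap nearly closed with H3K27me3, where 6 apart genes had 1.06 and 82 inside genes had 1. Without H3K27me3, 16 apart genes below that score had 2.46 and 90 inside genes had 1. Above it, 28 apart genes had 5.40 and 38 inside genes had 1 with H3K27me3, and 95 apart genes had 4.22 and 39 inside genes had 1 without. On the chromosomes, apart genes had 4.43 with H3K27me3 and 3.87 without, and inside genes had 1 in both classes. With coverage, across the 511 genes, Spearman's rho was 0.62 for the bp of H3K4me3 free of the other 2 marks and -0.62 for the share of the span under H3K27me1. It was 0.44 for the H3K4me3 score per kb, -0.44 for the share under 5mC and 0.25 for span. These values are descriptions across genes that share 1 mRNA library, and genes are not replicates.

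A minority of the genes had much mRNA. A coverage of 10 or more was listed for 16 genes with H3K27me3 (7.96%) and for 28 without (9.03%), against 32.1% of all listed genes. Of these, 7 with H3K27me3 and 18 without were apart, and 5 with H3K27me3 and 1 without were inside. The deposited tables carry identifiers without gene names, so nothing can be said of what these genes encode. The highest 2 with H3K27me3 were Aa_G571830 on chromosome 3 (23398911 to 23405367), at a coverage of 105, and Aa_G110390 on chromosome 2 (16675259 to 16677143), at 99.0. They differed in arrangement: Aa_G110390 was apart, with a single H3K4me3 domain of 1960 per kb, the highest in its class, while Aa_G571830 was inside, with 300 bp of H3K4me3 at 390 per kb. The highest 2 without H3K27me3 were Aa_G558260 on scaffold scaff_65278_1 (26258 to 27917), at 94.7, and Aa_G36580 on chromosome 4 (19413959 to 19419441), at 75.9. Both were apart, with 750 bp and 842 bp of H3K4me3 in the span and 600 bp of 5mC in each.

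**Figure D4:**
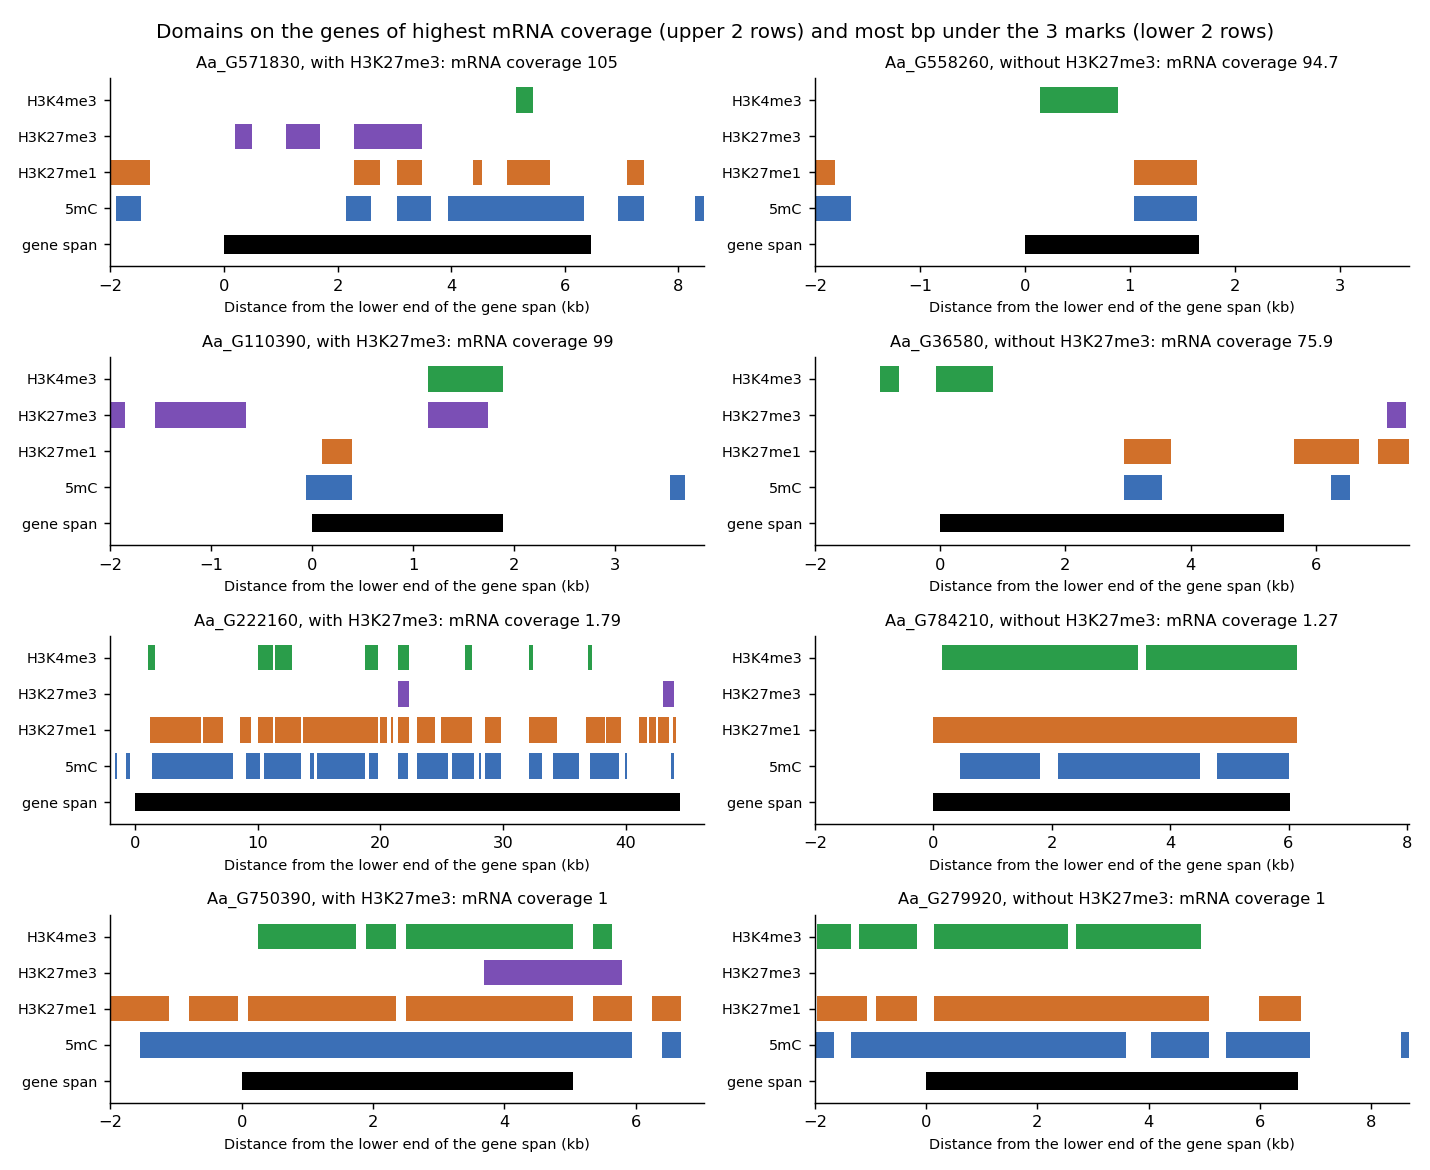
Domains (coloured blocks, 1 row per mark) and span (black) of the genes with the highest coverage (upper panels) and the most bp under the 3 marks together (lower panels), with H3K27me3 on the left and without on the right; the x axis is the distance from the lower end of the span in kb. H3K4me3 lies away from H3K27me1 and 5mC in Aa_G110390 (coverage 99.0) and inside H3K27me1 along Aa_G784210 (coverage 1.27).

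The longest gene with H3K27me3 was Aa_G222160 on chromosome 7 (6349649 to 6394038), of 44390 bp. It had 8 H3K4me3 domains, H3K27me1 on 68.9% of its span and a coverage of 1.79, and its 5100 bp under the 3 marks together were the most among these genes. The next longest, Aa_G534000 on chromosome 5 (28265 bp), was apart and had H3K27me1 on 1.77% of its span and a coverage of 2.74. Aa_G874840, at the end of a scaffold, had all 4 marks on 100% of its 2400 bp and a coverage of 1.26. Its H3K4me3 domain scored 1824 per kb and its 5mC domain 2143 per kb. Without H3K27me3 the longest were Aa_G253970 on chromosome 6 (20605 bp, mixed), at 18.4, and Aa_G563350 on scaffold scaff_54397_1 (17804 bp, apart), at 25.5, both above the median of all listed genes. The densest H3K4me3 without H3K27me3 lay on Aa_G127990 (3029 per kb, coverage 9.01) and Aa_G335980 (2940 per kb, coverage 7.95). The most bp under the 3 marks together without H3K27me3 lay on Aa_G784210 (4800 bp, coverage 1.27) and Aa_G279920 (4200 bp, coverage 1), both inside.

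In the class with H3K27me3, this mark mostly lay on sequence that also had H3K27me1, except in apart genes. Of the H3K27me3 bp in the spans, 68.7% were under H3K27me1, 54.9% under 5mC and 45.9% under H3K4me3. The share under H3K27me1 was 25.9% in apart genes and 80.3% in inside genes. H3K27me1 itself covered 50.4 of 284.4 kb of the apart spans and 382.9 of 631.3 kb of the inside spans in this class. How far the 2 shares differ beyond this amount of H3K27me1 was not tested. Over all listed genes it was 7.63%, a value that genes chosen for both marks were bound to exceed. All 4 marks shared at least 200 bp in 114 of the 201 genes, and any listed gene with such a stretch is in this class by the rule. Of the H3K4me3 bp, 63.5% were under H3K27me3 in inside genes and 18.1% in apart genes. The H3K27me3 domain with the largest overlap lay within the span in 121 genes, crossed 1 end in 74 and reached beyond both ends in 6. It was a median of 1500 bp long in inside genes and 1050 bp in apart genes. Among genes without H3K27me3, 2 had some of it, on fewer than 200 bp.

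A larger share of these genes than of all listed genes lay on unplaced scaffolds, and on the chromosomes they were denser where 5mC was higher. On scaffolds lay 51 of 201 genes with H3K27me3 (25.4%) and 87 of 310 without (28.1%), against 9.82% of all listed genes. The share was similar, 60 of 245 (24.5%), in genes with H3K27me1 and 5mC but neither trimethyl mark. By arrangement this was 3 of 34 apart and 39 of 120 inside genes with H3K27me3, and 22 of 111 apart and 48 of 129 inside genes without. Per 1000 listed genes the chromosomes held between 12.1 on chromosome 1 and 27.8 on chromosome 2, and scaffolds held 57.0. The 500 kb bins of the chromosomes were then put into 4 groups of about equal size by their 5mC share outside listed genes. From least to most 5mC, these groups held 7.38, 14.8, 20.1 and 41.2 members per 1000 listed genes. The bins were sorted by the 5mC list that also chose the genes. How much of this rise comes with the rule was not tested. Apart genes numbered 2.78 per 1000 in the first group and 11.2 in the last, and inside genes 2.30 in the first and 20.1 in the last.

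**Figure D5:**
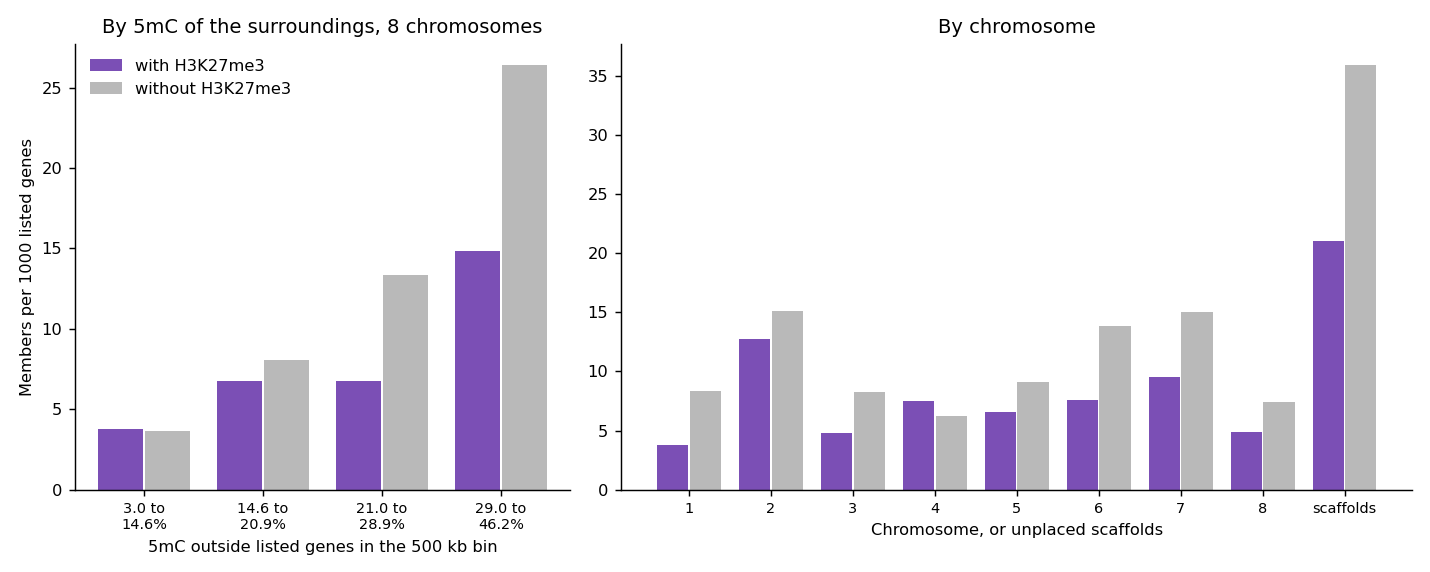
Members per 1000 listed genes (y axis) by the 5mC share outside listed genes in 500 kb bins (left) and by chromosome, with scaffolds last (right); bars stand for genes with and without H3K27me3. Bins with least 5mC have 3.75 with H3K27me3 and 3.63 without, bins with most have 14.8 and 26.4, and scaffolds have 21.1 and 35.9.

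The surroundings of these genes held more 5mC and fewer other genes than those of all listed genes. In flank marks and genes within 50 kb, though not in the distance to the next gene, they were much like those of the genes with H3K27me1 and 5mC but neither trimethyl mark. In the 10 kb on either side, 5mC covered a median of 23.1% with H3K27me3 and 25.8% without, against 6.60% for all listed genes and 6.0% for genes with only H3K4me3. Apart genes had 11.9% with H3K27me3 and 18.8% without, and inside genes had 26.2% and 27.9% in the same classes. H3K27me1 covered 19.5% of the flanks with H3K27me3 and 20.6% without, against 3.0% for all listed genes. Within 50 kb there was a median of 6 other listed genes in each class, against 11 for all listed genes. In the 245 genes with H3K27me1 and 5mC alone, the flanks had 23.2% of 5mC and 16.5% of H3K27me1, with 6 other genes within 50 kb. The main 5mC domain crossed 1 end into the flank in 71 of 201 genes with H3K27me3 and in 111 of 310 without. In these genes part of the flank 5mC belongs to a domain that also counted for the choice. The next listed gene on the same sequence was a median of 4494.5 bp away with H3K27me3 and 3334 bp without, against 729 bp for all listed genes. This distance was 1801 bp in the genes with H3K27me1 and 5mC alone. The share of the flank in 5mC went with lower coverage across the 507 genes with a measurable flank (Spearman's rho -0.27).

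A neighbouring listed gene was also a member for 17 genes with H3K27me3 (8.46%) and 42 without (13.5%), against 3.37% of all listed genes. They formed 28 pairs and 1 run of 3, on chromosome 8, of Aa_G44290, Aa_G44280 and Aa_G44270, with coverages of 4.63, 3.10 and 1. Neighbours were counted once for each member beside them, so a gene between members is counted more than once. Of these 842 neighbours, 60 were members as well. Only H3K4me3 lay on 496 neighbours (58.9%), a smaller share than the 16545 of 24657 among all listed genes. The median coverage of the 842 neighbours was 4.90, against 1.32 for the members and 5.77 for all listed genes. In 3 pairs the spans overlapped (Aa_G100850 with Aa_G100860, Aa_G197860 with Aa_G197850, and Aa_G20110 with Aa_G20120), so the values of each pair rest in part on the same sequence.

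At the edge of the rule, 34 genes had their smallest of the 3 overlaps at 150 bp or more but under 200 bp and fell outside, with a median coverage of 2.32, and 14 had it at 200 to 250 bp and fell inside, with a median coverage of 1.70. The nearest outside were Aa_G632230 (196 bp, coverage 1) and Aa_G502700 (185 bp, coverage 1.95), and the nearest inside were Aa_G801020 (204 bp, coverage 5.60) and Aa_G283260 (208 bp, coverage 1).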

How the data were processed

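Each mark is held as a deposited domain list with a score per domain that the authors left without a label, and mRNA as a deposited signal, the authors' read coverage of exons per gene. The submitters' processing notes name Bowtie and SICER and give no versions. Not given in the sources used here: the genome build, calling parameters, the way the 2 replicates were combined and any scaling of the mRNA signal. A reference genome was not used here. Coordinates are 1-based on the authors' assembly, with domain ends read as inclusive. Whether replicate libraries come from different plants is not in the labels.

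Overlaps in bp were computed with Python 3.11.15, numpy 2.4.6 and pandas 2.3.3, and tested on simulated data. Rank correlations used scipy 1.17.1 and figures matplotlib 3.10.9. Each score per kb is that of the domain with the largest overlap with the gene. Medians of coverage were compared as log2(coverage + 1). No gene was filtered. With 1 list per mark and 1 mRNA library no test was run. The genes to be named were, per class, the 2 highest in coverage, span, H3K4me3 score per kb and bp under the 3 marks together, the longest run, and the 2 nearest the overlap minimum on each side. The genes described and the lists of comparison genes were chosen with earlier results of these data known. Functional gene lists could not be counted, since identifiers come without names. Alternatives were a 400 bp minimum, 50% of the span, the upper 50% of domains by score per kb, chromosomes alone, 1 gene per H3K4me3 domain, spans of 2 kb and more, exclusive domain ends, an overlap-weighted score and genes above the lowest coverage.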

Additional observations from a re-analysis of the deposited data

How the results depend on the processing

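Of 56 values under other settings, 40 stayed within the counting interval of the share, the interval of the median across genes or 1.5 times the count reported, and 16 moved. Asking for 50% of the span under each mark left 22 genes with H3K27me3 and 49 without, with 54.5% and 42.9% of them on scaffolds and a median coverage of 1 in the class without. Using the upper 50% of domains by score per kb left 43 genes with H3K27me3 and 120 without, of which 53.5% and 31.7% had 200 bp under the 3 marks together; without H3K27me3 the median span was then 5876 bp and the median coverage 2.10. Both settings use fewer domains or a stricter rule by construction. A minimum of 400 bp gave 77.2% with 200 bp together in the class with H3K27me3, and the chromosomes alone gave 41.3% in the class without. Leaving out genes at the lowest coverage gave medians of 3.25 with H3K27me3 and 3.04 without, and the overlap-weighted H3K4me3 score was 506.7 per kb with H3K27me3. The apart and inside medians of coverage stayed within their intervals under a 400 bp minimum or on the chromosomes alone. For the inside medians the interval was 1 to 1, at the lowest listed value. No paired analysis was possible because the domains are listed once for both replicates of a mark, and leaving out a replicate could not be run for the same reason. Depth is unknown, so genes at the lowest coverage cannot be told apart from genes not reached at this depth.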
